A study of Mus musculus with 32 samples.

Results

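The total RNA libraries of mouse neural stem cells (NSCs) after 14 h with IFN-β or vehicle were examined, 8 of the 32 libraries in the series. They were taken by their labels, 4 treated with vehicle and 4 with IFN-β. The cells came from the ventricular-subventricular zone (vSVZ) of C57BL/6 mice aged 8 to 12 weeks, were grown ex vivo, and in both groups met cycloheximide, which holds ribosomes on mRNA, shortly before lysis. Each lysate also gave a footprint library, the mRNA fragments that ribosomes protect from RNase, and the footprints serve below as a second readout of each locus. The labels do not say what separates the 4 replicates, while the study's methods define replicates as mice or as NSC cultures of separate mice, and the p-values measure the spread between these libraries. In bulk libraries, more cells with a transcript and more transcript per cell cannot be told apart.

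Type I interferons such as IFN-β bind a receptor whose signal reaches the nucleus and switches on interferon-stimulated genes (ISGs). ISGs encode antiviral effectors, GTPases of the Gbp and Irg families, chemokines and the machinery that cuts, transports and presents peptides on MHC class I. In NSCs the pathway is also studied for its effect on proliferation. A second piece of background concerns the library. A directional kit keeps the strand of each RNA, so a read can be credited to the gene on its own strand or, if the strand is read the other way round, to whatever gene is annotated opposite to it. The strand setting used for counting is not given in the sources used here. Most changed genes are therefore given together with the annotated gene on its other strand, called its partner below, and with the partner's footprints.

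Total counts ran from 1370008 to 2442404 in the vehicle libraries and from 1934554 to 2737111 in the IFN-β libraries. Vehicle replicate 3, the smallest, stood apart. The locus Gm42418, which overlaps an annotated rRNA, took 39.3% of its counts and between 0.135% and 0.612% of those of the other 7 libraries. Its TMM factor was 0.486, and those of the others were all above 1. Markers of NSCs summed to 11730 to 14531 CPM (counts scaled to a common library size) in the footprints. Those of microglia summed to 37.2 to 45.5 CPM, with Aif1, Cx3cr1, Tmem119 and Ptprc below 1 count per library on average. In total RNA the same sums were 170 to 323 CPM for NSC markers and 416 to 518 CPM for microglia markers, so the labelled cell type was seen in the footprints, whereas in the total RNA table as it stands the microglia sum was the larger.

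Sox2, a transcription factor of NSCs with no annotated gene on its other strand, shows the difference at a single gene, chosen like Isg15 below after its values were seen. It had 646 to 2284 footprints in each of the 8 footprint libraries and no count in any of the 8 total RNA libraries, which together allow up to 0.172 CPM. Isg15, a ubiquitin-like ISG product, held 3541 to 13110 footprints per IFN-β library and 0 to 5 total RNA counts in those libraries. Of the genes with at least 1000 footprints per library on average, the 1009 with no annotated gene on the other strand had a median of 7.75 total RNA counts per library, and the 503 with an exon opposite another gene's exon had a median of 16.

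Where the counts lay differed between the 2 kinds of library. Genes with an exon opposite an exon of another gene are 18.9% of the 39017 genes in the total RNA table and took 60.6% to 73.2% of its counts, but 28.5% to 29.4% of the footprints. Genes with no annotated gene on the other strand are 63.3% of the table. They took 4.94% to 9.36% of the total RNA and 58.3% to 59.8% of the footprints. The ranges of the 2 kinds of library did not overlap for either class. IFN-β did not move the exon class in total RNA detectably, with 65.1% ± 5.56 (SD, n = 4) for vehicle and 64.3% ± 0.540 for IFN-β (two-sided exact permutation p = 0.971, smallest possible 0.0286). Without vehicle replicate 3 the vehicle mean was 62.5% ± 1.67 (n = 3, exact permutation p = 0.114).

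**Figure D1:**
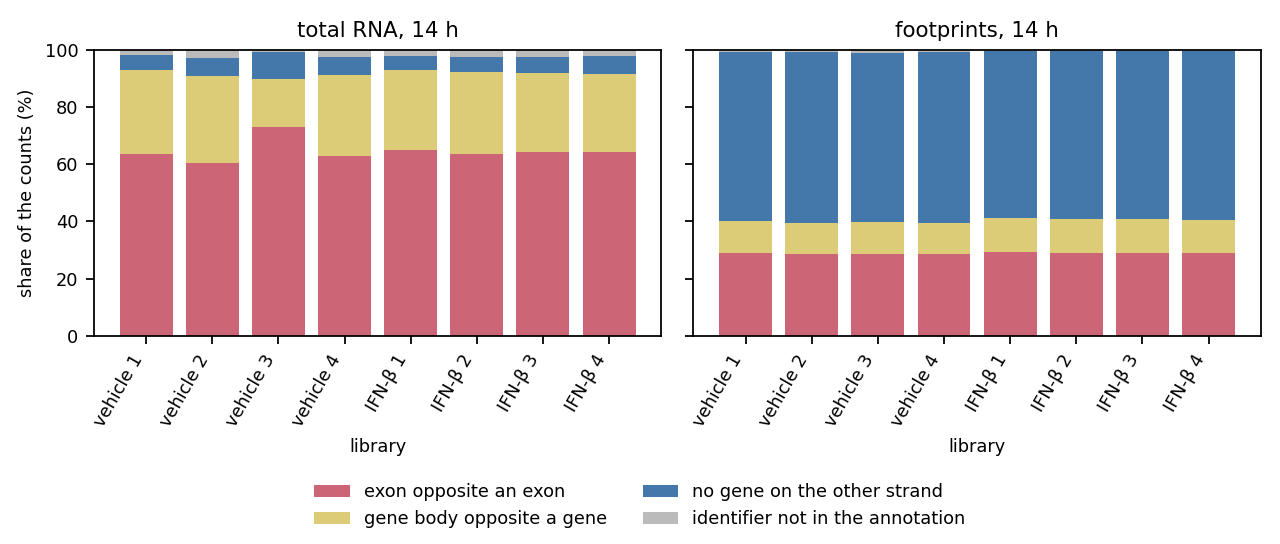
Share of the counts of each 14 h library (y axis, %) that fell on genes whose exons lie opposite an exon of another gene, genes that overlap a gene on the other strand only by their body, genes with no annotated gene there, and identifiers absent from the annotation. Each bar is 1 library, and vehicle replicate 3 has the largest exon share in total RNA (73.2%).

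With IFN-β, 261 of 7520 genes tested were called higher in total RNA (3.47%) and 213 lower (2.83%), by edgeR's quasi-likelihood test at an adjusted p under 0.05. In 12.3% of the genes tested the 2 groups of libraries did not overlap. Of the 3602 tested genes with an exon opposite another gene's exon, 166 were called higher (4.61%) and 118 lower (3.28%). Of the 1550 that overlap a gene on the other strand only by their body, 38 (2.45%) and 34 (2.19%) were called, and of the 2278 with no gene there 52 (2.28%) and 55 (2.41%). By biotype, 60 of the 777 antisense genes tested were called higher and 30 lower. Scaling by total counts alone shifted the median log2 fold change of all genes from -0.01 to 0.09, and with that shift 65.8% of the calls were higher in place of 55.1%. The lower calls numbered 92, 118, 139 and 136 when IFN-β replicates 1, 2, 3 and 4 were left out in turn. Without IFN-β replicate 1, 279 genes were called in all.

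Footprints followed the gene on the other strand more closely than the gene that was counted. Of the 261 genes higher in total RNA, 127 had a partner with enough footprints to test, and 115 of these partners (90.6%) had higher footprints and 1 lower. Of the 213 lower genes, 97 had such a partner, and 81 of these (83.5%) had lower footprints and 1 higher. Over all 12113 genes with footprints tested, 26.2% were called higher and 26.3% lower, and over the 2535 tested partners of all genes in the total RNA fit 29.6% and 23.2%. The counted genes' own footprints, wherever they could be tested, were higher for 77 and lower for 16 of 133 higher genes. Among 123 lower genes, own footprints were lower for 51 and higher for 33. The 133 include 33 genes, and the 123 include 39, with no gene on the other strand, which are described below. Among 51 higher genes where both could be tested, 42 partners and 21 of the counted genes themselves had higher footprints, while 10 of the counted genes had lower footprints. For 39 lower genes, 30 partners and 8 of the counted genes had lower footprints, and 16 of the counted genes had higher ones. Total RNA and footprints share their lysates.

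Across 1031 genes with an exon opposite a partner's exon, the log2 fold change in total RNA had a Spearman rho of 0.49 (Pearson's r = 0.60) with that of the partner's footprints and of 0.15 (r = 0.21) with that of the gene's own footprints. Levels with vehicle gave the same order, with a rho of 0.19 for the partner and -0.10 for the gene itself. These are correlations across genes, which are not independent replicates and share libraries, and they are given as a description.

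**Figure D2:**
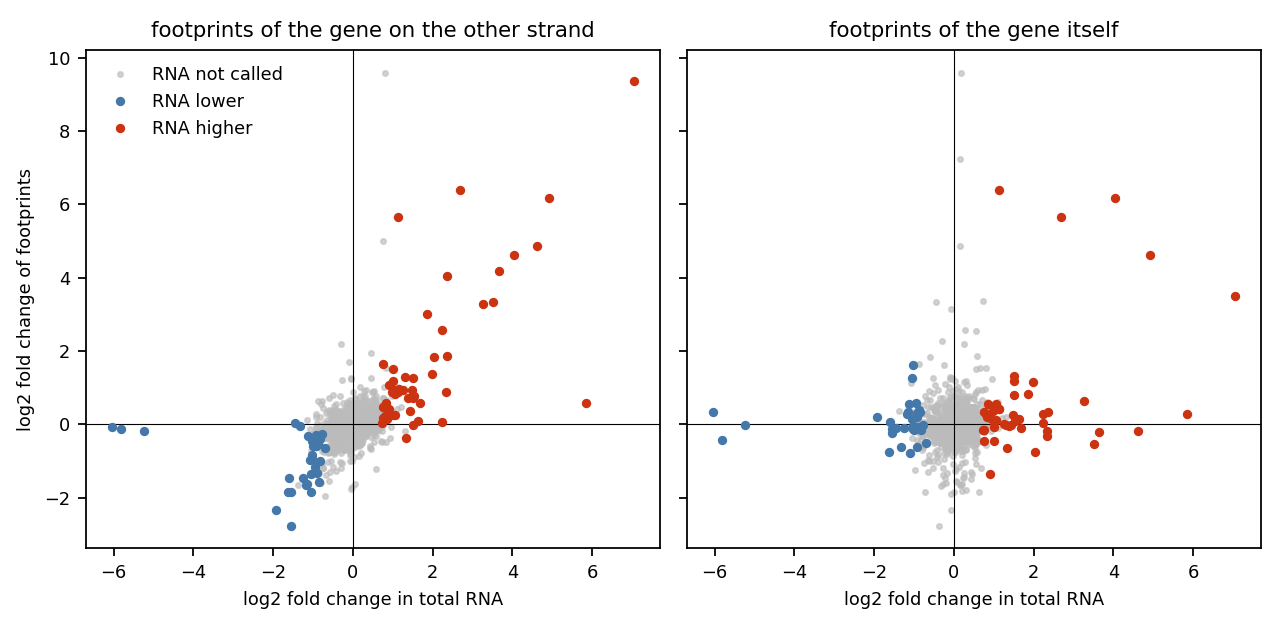
Log2 fold change with IFN-β in total RNA (x axis) against the log2 fold change of footprints (y axis) of the gene on the other strand (left) and of the same gene (right), for 1031 genes with opposed exons and footprints tested for both. Genes called higher (red) or lower (blue) in total RNA lie along a diagonal on the left, while on the right most lie near 0 on the y axis, and the 3 lower genes beyond -5 on the x axis show little change on either y axis.

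Antigen processing and presentation gave high counts. Gm20496, an antisense gene on the minus strand (chr17:34199316-34205449, GRCm38), lies opposite Psmb8, a catalytic subunit of the immunoproteasome, and opposite part of Tap2, a subunit of the transporter that moves peptides into the endoplasmic reticulum. Its counts were 48, 24, 15 and 30 in the vehicle libraries and 10495, 11565, 11640 and 7122 in the IFN-β libraries, a log2 fold change of 7.92 ± 0.31 (SE, adjusted p = 1.3e-10). The groups did not overlap. Psmb8 footprints went from 4 to 6 per vehicle library to 940 to 3504 per IFN-β library (log2 fold change 9.08 ± 0.13), and Tap2 footprints rose by 4.23 ± 0.11 on the log2 scale. Under its own name Psmb8 had no total RNA count with vehicle and 2 to 16 with IFN-β.

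Patl2 is the clearest case of an overlap by the gene body alone. Its introns (chr2:122120108-122186189, minus strand) hold B2m, the light chain of every MHC class I molecule, on the other strand, with all of its 860 exonic bases and none of them opposite a Patl2 exon. Patl2 counts were 1461, 866, 254 and 768 with vehicle and 31415, 30628, 21953 and 13132 with IFN-β (log2 fold change 4.42 ± 0.30, adjusted p = 4.4e-08). Footprints of B2m went from 852, 1627, 1436 and 1849 to 10226, 26247, 25386 and 39816, a log2 fold change of 4.50 ± 0.08. The groups did not overlap in either readout. Patl2's own footprints were too few to test, and Trim69, which overlaps more of its body than B2m does, had at most 4 footprints in any library.

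Several MHC class I genes appeared the same way. A930015D03Rik, an antisense gene that overlaps 3 class I genes, held 26 to 92 counts with vehicle and 3223 to 5600 with IFN-β (log2 fold change 5.85 ± 0.26). The footprints of its partner H2-T22 rose by 4.17 ± 0.14 on the log2 scale and those of H2-T23, which lies in its introns, by 7.07 ± 0.17. H2-T24, also in its introns, had no footprint in the vehicle libraries and 37 to 116 in each IFN-β library, which is at least 131-fold higher against 3 counts over the vehicle group. Gm11131, opposite H2-Q4, went from 15 to 53 counts to 1260 to 2104 (log2 fold change 5.30 ± 0.27), and the footprints of H2-Q4 rose by 5.16 ± 0.13. Class I genes resemble one another, so reads can be split between copies and the values of single members are uncertain. Gm20478, opposite the class I gene Gm8909, rose from 0 to 16 counts to 490 to 650 (log2 fold change 5.89 ± 0.36), and Gm8909 footprints by 5.28 ± 0.30.

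Tap1, the other subunit of the peptide transporter, and Psmb9, a second immunoproteasome subunit, face each other and share a start region with 212 bases of opposed exons. Psmb9 held 10 to 38 counts with vehicle and 500 to 605 with IFN-β (log2 fold change 4.04 ± 0.25), and Tap1 1 to 11 and 182 to 247 (4.91 ± 0.31). Both sets of footprints rose, by 6.18 ± 0.14 for Psmb9 and 4.62 ± 0.13 for Tap1, so which of the pair the RNA counts came from cannot be told apart here. Gm15821, opposite a stretch of Tap2, rose from 26 to 152 counts to 2368 to 3276 (log2 fold change 4.61 ± 0.26), close to the 4.23 of the Tap2 footprints. Vamp1, a vesicle fusion protein whose body holds Tapbpl, a chaperone of MHC class I loading, rose by 3.84 ± 0.24, and the Tapbpl footprints by 3.45 ± 0.15. Emc9, which shares 14 bases with Psme1, an activator subunit of the proteasome, rose by 3.25 ± 0.24, beside 3.28 ± 0.08 for Psme1 footprints.

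Art3, an ADP-ribosyltransferase gene on the plus strand of chromosome 5 (chr5:92331827-92414628), lies across a chemokine locus. Its counts were 49, 40, 10 and 34 with vehicle and 5568, 6638, 7030 and 4726 with IFN-β (log2 fold change 7.04 ± 0.28, adjusted p = 1.3e-10). Cxcl10, the chemokine ligand of CXCR3, lies wholly inside Art3 on the other strand with 2252 exonic bases, of which 133 face an Art3 exon. Its footprints were 2, 5, 10 and 7 with vehicle and 959, 2913, 3920 and 5250 with IFN-β (9.36 ± 0.29), while under its own name Cxcl10 had no total RNA count with vehicle and 1 to 7 with IFN-β. Art3's own footprints also rose, from 1 to 3 per library to 11 to 30 (3.51 on the log2 scale). Cxcl11, a neighbouring chemokine gene that is annotated as a polymorphic pseudogene, had no footprint in any library.

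**Figure D3:**
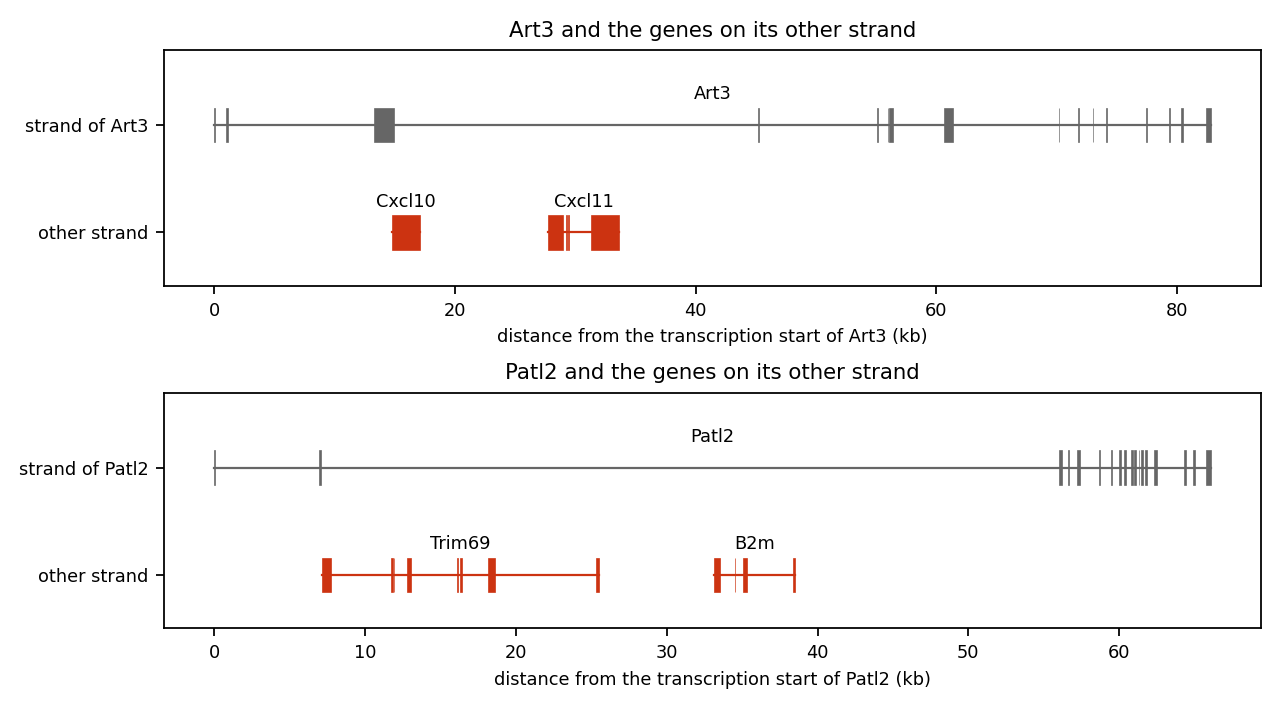
Annotated exons (boxes) and gene bodies (lines) of Art3 and of Patl2 (grey) and of the genes on their other strand (red), against the distance in kb from the transcription start of Art3 or Patl2. Cxcl10 and Cxcl11 lie inside Art3, and Trim69 and B2m inside an intron of Patl2.

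Antiviral effectors came next. Gm11626, a short antisense gene (chr11:101456576-101457390, minus strand), faces 290 exonic bases of Ifi35, an interferon-induced leucine zipper protein. It held 1, 0, 1 and 1 counts with vehicle and 899, 958, 860 and 555 with IFN-β, a ratio of 798 with a 95% counting interval of 273 to 3873, which like all such intervals here covers counting error only. Ifi35 footprints rose from 1 to 5 to 391 to 1612 (log2 fold change 8.41 ± 0.17). Vat1, a vesicle amine transport protein, went from 3, 1, 0 and 7 counts to 243, 222, 275 and 151 (5.85 ± 0.36). Its own footprints rose by 0.28.

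Dhx58os, opposite Dhx58, an RNA sensor related to RIG-I, held 5, 3, 1 and 6 counts with vehicle and 627, 429, 816 and 271 with IFN-β (6.64 ± 0.35). Dhx58 itself had 3 footprints over the vehicle libraries and 265 to 978 in each IFN-β library, a ratio of 1102 with a counting interval of 377 to 5348. Cyren, an inhibitor of DNA end joining, shares 2168 exonic bases with the transmembrane protein gene Tmem140 on its other strand. It had 0, 0, 0 and 3 counts with vehicle and 92, 119, 151 and 85 with IFN-β, a ratio of 109 (counting interval 37.1 to 531). Tmem140 had no footprint in the vehicle libraries and between 6 and 32 in each IFN-β library. Taking 3 counts over the whole vehicle group as the floor, this is at least 35.8-fold higher, but it was too low for the fit. The footprints of Cyren itself did not pass the test (-0.33 on the log2 scale). Slfn5os, opposite the antiviral Slfn5, rose by 5.43 ± 0.49, and Slfn5 footprints by 7.76 ± 0.27.

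Mir6381 is a microRNA gene on the minus strand (chr3:142623860-142623946) whose hairpin faces 24 exonic bases of Gbp2, an interferon-inducible GTPase. Its counts were 0, 0, 0 and 1 with vehicle and 97, 71, 112 and 61 with IFN-β, a ratio of 250 with a counting interval of 44.5 to 9887. Gbp2 footprints went from 19 to 70 to 2993 to 12538 (7.86 ± 0.16). The mature sequence from RefSeq is printed to show what the counted name stands for, with the seed (bases 2 to 8) in capitals.
mmu-miR-6381, chr3:142623925-142623945, minus strand: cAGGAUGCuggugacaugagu
The libraries were made from rRNA-depleted total RNA with no selection for small RNA, and the mature form was not measured on its own.

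Promoters of the partners were searched for the core of the interferon-stimulated response element (ISRE), a site through which interferon acts on promoters. The letters searched were GAAANNGAAA on either strand, in the 250 bases before the annotated start in RefSeq (GRCm38.p6). The promoters printed here, of genes on the other strand, were chosen because they hold the core. Of the genes counted opposite them, Art3, Cyren, Patl2 and Slfn5os hold no match. Mir6381 and A930015D03Rik had no promoter to search. Capitals mark the core, and each stretch is given 5′ to 3′ on the strand of its gene.
Cxcl10, opposite Art3, chr5:92349053-92349139, minus strand: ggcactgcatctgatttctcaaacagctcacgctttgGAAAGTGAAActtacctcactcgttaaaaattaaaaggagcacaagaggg
Gbp2, opposite Mir6381, chr3:142620564-142620653, plus strand: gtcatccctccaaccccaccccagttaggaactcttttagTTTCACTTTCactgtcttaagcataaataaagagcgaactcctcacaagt
Tmem140, opposite Cyren, chr6:34863043-34863132, plus strand: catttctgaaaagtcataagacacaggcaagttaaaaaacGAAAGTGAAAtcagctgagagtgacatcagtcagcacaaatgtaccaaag
H2-T22, opposite A930015D03Rik, chr17:36042884-36042973, minus strand: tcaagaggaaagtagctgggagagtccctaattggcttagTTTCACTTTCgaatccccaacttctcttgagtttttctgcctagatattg
B2m, inside Patl2, chr2:122147508-122147597, plus strand: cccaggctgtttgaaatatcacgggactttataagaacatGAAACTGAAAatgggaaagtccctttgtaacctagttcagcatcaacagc
Slfn5, opposite Slfn5os, chr11:82951907-82951996, plus strand: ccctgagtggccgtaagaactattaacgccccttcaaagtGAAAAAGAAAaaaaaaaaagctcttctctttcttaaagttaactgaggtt
In Gbp2 and H2-T22 the core reads TTTCNNTTTC, its form on the other strand. The core starts 213 bases before the annotated start in Cxcl10, 59 in Gbp2, 63 in Tmem140, 191 in H2-T22, 139 in B2m and 155 in Slfn5. No match was found for Ifi35, Psmb8, Psmb9 or Tap1 in this window.

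These promoters were picked for their match and do not stand for the rest. Of the 113 partners with higher footprints opposite the genes called higher, 95 had a promoter in the table and 8 of these (8.42%) held the core. Of the 115 genes counted opposite them, 64 had one and 4 (6.25%) held it, and over all 27025 symbols the share was 3.46%. A match is a description of letters and not a bound site.

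**Figure D4:**
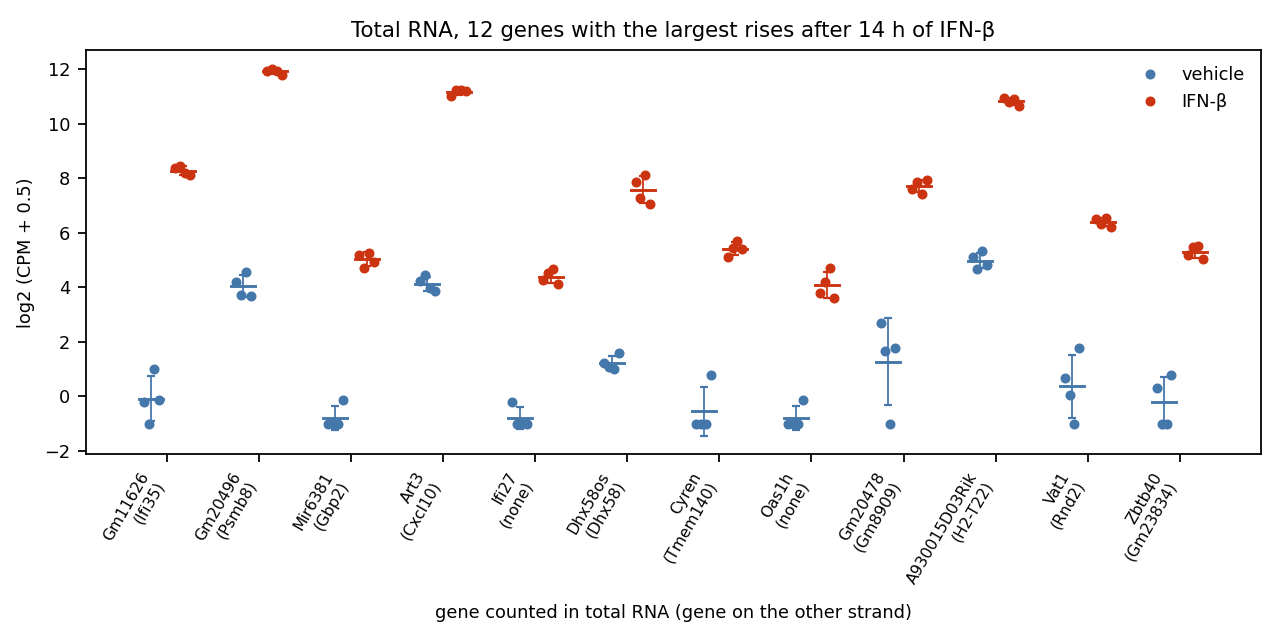
Levels in total RNA, as log2 of CPM plus 0.5 (y axis), of the 12 genes with the largest rises at a mean of at least 20 counts and groups that do not overlap (x axis, partner in brackets). Points are libraries (blue, vehicle and red, IFN-β), and bars give the mean and SD of 4 libraries. In each of the 12 genes every IFN-β library lies above every vehicle library.

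Among the 12 largest rises, 3 had no partner in the footprint table. Ifi27, an interferon-induced mitochondrial protein, has no gene on its other strand, and its end faces that of Ifi27l2a, a relative 1927 bases away whose footprints rose by 7.90 on the log2 scale. It had 1, 0, 0 and 0 counts with vehicle and 51, 62, 74 and 34 with IFN-β, a ratio of 162 (counting interval 28.7 to 6418), while its own footprints rose by 1.29. Oas1h, of the oligoadenylate synthetase family, rose from 0, 0, 0 and 1 to 36, 50, 75 and 24 counts, a ratio of 135 (24 to 5377). Its end faces that of Oas1g, which lies 2635 bases away and whose footprints rose by 11.30. Zbtb40, a zinc finger gene, went from 2, 0, 0 and 3 to 96, 123, 135 and 65 counts (5.82 ± 0.41), and its own footprints changed by 0.12 without passing the test. The only gene annotated opposite it is Gm23834, a snoRNA that the footprint table does not list.

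Of the 52 higher genes with no gene on the other strand, 33 had footprints that could be tested, and these were higher in 29, beside 30.1% of all 1809 such genes tested. Opposite-strand neighbours within 5000 bases had testable footprints for 13 of the 52, and for 12 of these 13 at least 1 neighbour had higher footprints, against 28.7% of all 670 such genes tested. In 10 of these 12 the 3′ ends of the gene and its neighbour face each other. How often such ends face over all 670 genes was not counted. Of the 55 lower genes with no gene on the other strand, 39 had footprints tested, of which 24 were lower and 6 higher, beside 25.4% lower over all such genes. Neighbours could be tested for 23 of the 55 and were lower for 14 and higher for 1. Over all 670 such genes tested, 29.1% had a lower neighbour and 28.7% a higher one.

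The interferon genes themselves were thinly counted. Of 151 genes in 5 lists of the pathway (signalling, antiviral effectors, GTPases, antigen presentation, chemokines and cytokines) 149 are in the total RNA table, with a median of 4.75 counts per library, and 133 had footprints that could be tested, 129 of them higher. In total RNA 55 could be tested, of which 25 were called higher and 1 lower, with a median log2 fold change of 0.91 beside -0.01 over all genes tested. Among the 26 tested genes with an exon opposite a member, 20 were called higher, with a median of 3.60. By list, these were 1 of 6 for signalling, 9 of 9 for antiviral effectors, 1 of 1 for GTPases, 8 of 8 for antigen presentation and 1 of 2 for chemokines. Only 46 of the members have an exon opposite another gene. Over all genes tested in total RNA 3.47% were called higher, and 4.61% of those with opposed exons. In the footprints 26.2% of all genes tested were called higher.

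Of the 25 members called higher under their own name, 15 have no gene on the other strand, and their counts were low. They are 15 of the 23 members tested in that class. With opposed exons 8 of 24 tested members were called higher, and with overlap of the body only 2 of 8. Over all genes tested in the same 3 classes the shares were 2.28%, 4.61% and 2.45%. Ifit2, an inhibitor of translation of viral RNA, had 1, 1, 0 and 0 counts with vehicle and 27, 36, 52 and 23 with IFN-β, a ratio of 50.5 (counting interval 13.7 to 421), beside 2082 to 8125 footprints per IFN-β library. Irf9, a transcription factor of the response, had no count in the vehicle libraries and 12 to 19 in each IFN-β library, and so was at least 14.6-fold higher. H2-D1, a classical class I heavy chain, rose from 0 to 3 counts to 27 to 43 (4.08 ± 0.48), and its footprints by 5.81 ± 0.12. Irgm1, an immunity-related GTPase, was better counted, at 33 to 139 and 262 to 372 counts (1.44 ± 0.29), and its footprints rose by 5.76 ± 0.08.

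In the signalling list Stat2, a transcription factor, had 3 to 28 and 12 to 21 counts and did not pass the test (-0.14 ± 0.31), while its footprints rose by 4.63 ± 0.08. Irf1, an early transcription factor of the response, and Gm17334, which lies inside it on the other strand, rose by 3.00 ± 0.38 and 2.85 ± 0.31, and Irf1 footprints by 2.77 ± 0.13. The member called lower was Rnf213, a large antiviral ubiquitin ligase, whose counts were 79, 75, 22 and 98 with vehicle and 29, 32, 65 and 35 with IFN-β (-1.22 ± 0.25). The gene opposite it, A930037H05Rik, is not listed in the footprint table. The footprints of Rnf213 went from 441 to 642 per vehicle library to 9621 to 16376 per library, a log2 fold change of 5.09 ± 0.20.

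Other rises paired with partners outside the lists. Rprd1b, a regulator of RNA polymerase II, rose from 11 to 72 counts to 719 to 745 (3.65 ± 0.23) opposite Tgm2, transglutaminase, whose footprints rose by 4.19 ± 0.26, while those of Rprd1b fell by 0.22. Rrp9, a factor of small nucleolar particles, rose by 2.35 ± 0.26 and lies opposite Parp3, of the ADP-ribosyl polymerases, with footprints up by 4.06 ± 0.09. Ccdc167 rose from 385 to 1371 counts to 3550 to 6882 (2.04 ± 0.22) opposite Cmtr1, the cap methyltransferase, whose footprints rose by 1.85 ± 0.08, and its own footprints fell by 0.76. Syn1, a synaptic vesicle protein, rose by 2.23 ± 0.24. Its partner by exon overlap is Araf, which shares only 9 bases with it and whose footprints did not pass the test (0.08 ± 0.06). The other gene opposite Syn1 with footprints tested is Timp1, a metalloproteinase inhibitor. All 888 of its exonic bases lie within the body of Syn1, and its footprints rose by 3.04 ± 0.15. These 4 were chosen after their values were seen.

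Among the 12 largest falls with groups apart, 7 named genes were histone genes or lay opposite one. Replication-dependent histone genes supply the core of chromatin and are transcribed in S phase. Gm20628, an antisense gene (chr3:96267075-96270289, minus strand), covers all 488 bases of Hist2h3b on its other strand and held 21930, 14830, 7370 and 16324 counts with vehicle and 4491, 4692, 6591 and 2791 with IFN-β (-2.29 ± 0.26, adjusted p = 2.0e-05). Gm20628 also covers all 381 bases of Hist2h2bb, which has no footprint values, and 257 exonic bases of Gm42743. The footprints of Gm42743 changed by -2.38 ± 0.09, so the counts of Gm20628 cannot be assigned to 1 of these genes. The raw Gm20628 counts of vehicle replicate 3 come near those of IFN-β replicate 3. Scaled by library size and TMM factor, the groups did not overlap. The separation of other falls whose raw counts cross, such as Smap1, also rests on the TMM factor of vehicle replicate 3. Hist2h3b itself, a histone H3 gene, had 157, 184, 33 and 87 counts with vehicle and 19, 24, 15 and 21 with IFN-β (-2.98 ± 0.32), and its footprints fell from 4008 to 9674 to 306 to 1440, by 2.74 on the log2 scale.

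Gm20632, opposite the histone H2A gene Hist2h2aa2, held 6740 to 26089 counts with vehicle and 5597 to 7558 with IFN-β (-1.97 ± 0.26), and the footprints of Hist2h2aa2 changed by -1.92 ± 0.11. Hist2h2aa2 had no total RNA count in any library. 4930558J22Rik, opposite the histone H4 gene Hist1h4b, changed by -2.14 ± 0.28 and the footprints of its partner by -1.96 ± 0.07. Gm15444 and Gm20633 changed by -2.28 ± 0.31 and -2.05 ± 0.32, and the footprints of the H2A genes opposite them, Hist2h2ab and Hist2h2aa1, by -2.14 ± 0.10 and -2.23 ± 0.30. By the rule of longest overlap the partner of Gm20633 is Gm20634, which is absent from the footprint table used here.

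Histone genes were also lower under their own names, at far lower counts. Hist1h3b, with no gene on its other strand, had 61, 49, 15 and 43 counts with vehicle and 7, 16, 11 and 20 with IFN-β (-2.06 ± 0.33), and its footprints fell by 2.15 on the log2 scale. Of 62 histone genes in the table, a set gathered by name after values were seen, 21 could be tested in total RNA and 16 were called lower, and all 5 tested genes with an exon opposite one were called lower. Lower calls made up 2.83% of all genes tested in total RNA and 3.28% of those with opposed exons. The median change was -1.47 for the members, -2.14 for the genes opposite and -2.14 for the footprints of 59 members. Histone genes have near-identical copies, so reads can be shared between them.

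**Figure D5:**
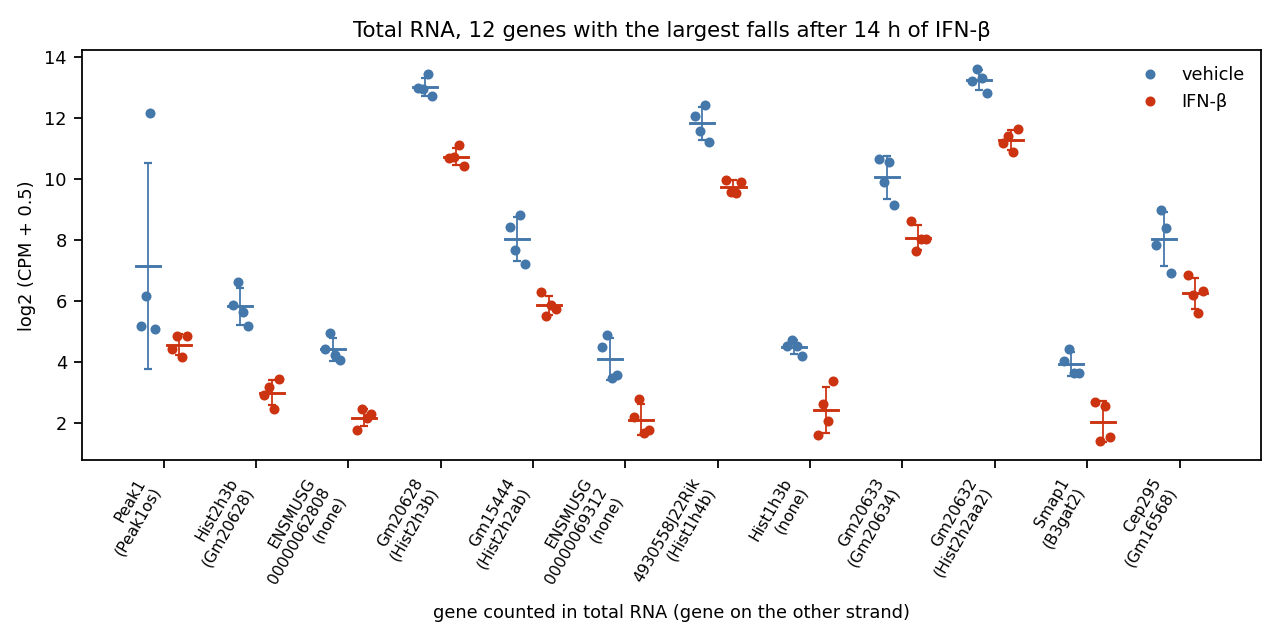
Levels in total RNA, as log2 of CPM plus 0.5 (y axis), of the 12 genes with the largest falls under the same conditions (x axis, partner in brackets), with libraries as points (blue, vehicle and red, IFN-β) and bars for the mean and SD of 4 libraries. The vehicle mean of Peak1 rests on 1 library at 4609 CPM.

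Among the largest falls, ENSMUSG00000062808 (-2.39 ± 0.29) and ENSMUSG00000069312 (-2.22 ± 0.37), are identifiers outside the annotation and stay unnamed, and their footprints changed by -2.04 and -1.96. Smap1, an ArfGAP, held 43, 40, 8 and 29 counts with vehicle and 16, 6, 16 and 5 with IFN-β (-1.93 ± 0.34). It shares 2076 exonic bases with B3gat2, a glucuronyltransferase, whose footprints changed by -2.34 ± 0.26, while its own rose by 0.20. Cep295, a centriole protein, changed by -1.91 ± 0.37 opposite Gm16568, which the footprint table does not list. Its own footprints fell by 0.64 and those of Taf1d, with 77 exonic bases opposite, by 0.46.

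Peak1, a kinase of the cytoskeleton, gave the largest fall among genes whose groups did not overlap, and rests on 1 library. Its counts were 98, 136, 3035 and 81 with vehicle and 57, 79, 52 and 58 with IFN-β (-5.63 ± 1.32, adjusted p = 0.017). Without vehicle replicate 3 the change was -1.0 on the log2 scale and was not called, and it was not called either without IFN-β replicate 1 (-5.57), 3 (-5.50) or 4 (-5.72). Among the 213 lower calls, 24 genes stood more than 5 times higher in vehicle replicate 3 than in any other library, and all 24 lost their call without it. In that fit 160 genes were called lower, 150 of them among the 213, and 231 higher, 222 of them among the 261.

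Genes opposite regulators of DNA synthesis and division fell too, in small numbers. Of 42 DNA replication genes, 15 could be tested under their own name. The 1 called was Orc2, a subunit of the origin recognition complex, and it rose (1.34 ± 0.37), from 12 to 48 counts to 47 to 143, while its footprints fell by 0.64. Its partner Nif3l1 had footprints lower by a log2 fold change of -0.37. Orc2 lost its call without vehicle replicate 2 or 4 (edgeR adjusted p 0.11 and 0.14) and without replicate 1 or 3 of IFN-β (0.17 and 0.11). Among 9 genes with an exon opposite a member 2 were called lower, Gm12743 opposite Orc1 (-1.66 ± 0.21) and Gm10143 opposite the flap nuclease Fen1 (-1.06 ± 0.24), which lost its call without IFN-β replicate 2 (edgeR adjusted p = 0.059). Over all tested genes with opposed exons 3.28% were called lower. Footprints of all 42 members were lower, beside 26.3% of all genes with footprints tested. Gm20708, whose body holds thymidine kinase Tk1, went from 909 to 3157 counts to 762 to 1000 (-1.58 ± 0.23), beside -1.69 ± 0.11 for Tk1 footprints.

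For 42 cell cycle genes, 14 could be tested by edgeR and 0 were called, with 1 at an unadjusted p under 0.05 and 0 called by DESeq2 or limma-voom. Among 11 genes opposite a member's exon, 3 were called lower. They were Ints8 opposite cyclin E2, Ccne2 (-1.54 ± 0.26), Gm2788 opposite the repressor E2f8 (-1.53 ± 0.22) and Exosc9 opposite cyclin A2, Ccna2 (-0.89 ± 0.21). Exosc9 lost its call without IFN-β replicate 1, 2 or 4 (edgeR adjusted p 0.075, 0.067 and 0.052). The share called lower over all tested genes with opposed exons was 3.28%. Footprints of these partners changed by -2.77, -1.77 and -1.34. Of 41 members tested 35 had lower footprints, beside 26.3% of all genes with footprints tested.

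Of the NSC markers, 1 of 9 tested was called, Nr2e1, a nuclear receptor that maintains NSCs. It went from 81, 36, 19 and 60 counts to 20, 19, 16 and 17 (-1.87 ± 0.25), and its footprints fell by 0.47. Of 4 microglia markers tested 1 was called, P2ry12 (-1.03 ± 0.23), which lost its call without IFN-β replicate 1 (edgeR adjusted p = 0.051). Footprints could be tested for P2ry12, where they rose by 1.62, and for Itgam, where they fell by 0.75 on the log2 scale. Med12l, which faces 9 exonic bases of P2ry12, changed by 0.75 ± 0.20 and lost its call without vehicle replicate 1, 3 or 4 or IFN-β replicate 1, 2 or 4 (edgeR adjusted p 0.067 to 0.13). The longest partner of Med12l is Igsf10, whose footprints rose by 1.66. The part of these cell types in the results was not tested. The neuronal, oligodendrocyte and endothelial lists held 1, 2 and 3 tested genes. Over all genes tested in total RNA 3.47% were called higher and 2.83% lower.

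Total RNA after 2 h gives the same loci at an earlier time. Of the 261 genes higher at 14 h, 246 were tested at 2 h and 51 were called higher there, beside 84 of all 11639 genes tested at 2 h. Of the lower genes, 211 were tested at 2 h, and edgeR called 0 of them there in either direction, with 14 lower and 0 higher at an unadjusted p under 0.05. The difference between times, tested as an interaction over 16 libraries, was called for 51 of the 261 with a larger change at 14 h and for 5 of the 213 lower genes with a more negative one, out of 63 and 13 among all 11885 genes tested. Art3 was already at 11973 to 62922 counts with IFN-β at 2 h against 60 to 90 with vehicle (log2 fold change 8.41), and its difference between times did not pass the test (-1.31). Patl2 changed by 1.78 at 2 h and by 2.71 more at 14 h, and Gm20628 by 0.07 at 2 h and -2.26 more at 14 h.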

How the data were processed

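The values are raw read counts per gene as deposited by the authors. Per the labels and the paper's methods, the authors trimmed reads with Trim Galore 0.4.4. They mapped them with Bowtie 0.12.7 to the mm10 (GRCm38) transcriptome from Ensembl and removed duplicated reads. Counting used SummarizeOverlaps (mode "Union"), total RNA over the whole gene body and footprints over coding sequence. The strand setting is not given in the sources used here. Total RNA libraries came from a directional kit after rRNA depletion. Annotation was GENCODE M21 (GRCm38), which holds 37693 of the 39017 identifiers of the total RNA table and 22282 of the 23035 of the footprint table. It matches Ensembl release 96, and the paper's methods name an earlier release. A partner is the gene on the other strand with the longest exon overlap (at least 1 base), or else the longest overlap of gene bodies.

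Genes reaching 10 counts in 4 or more of the 8 libraries were tested with edgeR 4.0.16 in R 4.3.3 (TMM, quasi-likelihood, two-sided, treatment alone, Benjamini-Hochberg over all genes tested). The same was done for footprints and, as an interaction, for 14 h against 2 h. Each SE was derived from the test, as the size of the log2 fold change over the square root of its F statistic. CPM are counts over library size times TMM factor. DESeq2 1.42.0, limma 3.58.1 and other settings were alternatives, and leaving out a library kept the same genes. Depths of 1370008 to 2737111 total RNA counts limit what low genes can show. Named genes are the 12 largest rises and 12 largest falls among calls whose mean count was 20 or more and whose groups did not overlap, plus called list members and called genes opposite interferon list members; others are marked. Results for a few items are not reported here. Members and lists were chosen with earlier results of these data known. Python 3.11.15 with scipy 1.17.1 gave the exact tests. Deviations from group means correlated between same-numbered footprint libraries at 0.34, 0.22, 0.19 and 0.42.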

Additional observations from a re-analysis of the deposited data

Results flagged for a closer look

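Within the groups of 4 libraries, 58 sets of values were screened for a library far from the other 3, by Dixon's critical value, which chance passes in about 1 of 20 sets. Vehicle replicate 3 stood apart in its share of counts on Gm42418 (39.3%) and in Peak1 (4609 CPM). IFN-β replicate 1 was the lowest of its group for Art3 (2059 CPM). The other 4 cases each rest on 1 to 3 counts in a single vehicle library, namely Mir6381 (0.414 CPM in replicate 4), Oas1h (0.414 CPM in replicate 4), Cyren (1.24 CPM in replicate 4) and Ifi27 (0.368 CPM in replicate 1).

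The change with IFN-β differed between 14 h and 2 h, by the interaction over 16 total RNA libraries, for 11 of the 24 genes with the largest changes. These 24 genes were picked for their change at 14 h in the same libraries, which favours a larger change at 14 h. Over all 11885 genes tested the difference was called positive for 63 and negative for 13. The difference in log2 fold change, 14 h minus 2 h, was 4.97 for Gm11626, 4.11 for Gm20496, 4.72 for Ifi27, 4.21 for Dhx58os, 5.32 for Gm20478, 3.98 for A930015D03Rik, 4.04 for Vat1 and 4.53 for Zbtb40. For 3 genes of the histone loci it was -2.87 (Hist2h3b), -2.26 (Gm20628) and -2.43 (Gm15444). Each time has libraries of its own, so time and anything else that differed between these sets of libraries cannot be told apart.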

How the results depend on the processing

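The 474 calls became 269 when libraries were scaled by total counts alone, 247 with a mean of at least 50 counts required, 153 with genes that have an opposite-strand exon left out and 104 with all genes opposite another left out, the last 3 on fewer genes. Refits under these last 3 settings called 124, 83 and 59 genes higher, in place of 261. The 213 lower calls became 92 with total counts alone and 123, 70 and 45 under the same 3. DESeq2 called 482 genes and limma-voom 419. Leaving out each library in turn gave 279 to 442 calls, 187 to 234 higher and 92 to 219 lower. Of the interferon lists, 25 members were called higher, and 16 with genes opposite another left out, 5 with a mean of at least 50 counts and 46 with no filter (25 to 26 with a library left out). Genes opposite these lists called higher went from 20 to 12 with a mean of at least 50 counts (20 to 21 with a library left out) and to 24 with overlaps of gene bodies, a setting chosen after seeing the data. The 115 higher genes whose partner had higher footprints became 71 with total counts alone, 79 to 104 with a library left out and 128 with any gene on the other strand, also chosen after seeing the data. With the replicate block 519 genes were called, 287 higher and 232 lower. Between same-numbered total RNA libraries, deviations from group means correlated at 0.26, 0.09, -0.01 and 0.05. Whether the replicate numbers pair the libraries was not tested. For footprints the block gave 3856 higher and 3753 lower calls in place of 3176 and 3185, and 2845 to 3223 and 2783 to 3158 were called with a library left out. Among the 24 largest changes, Peak1 lost its call with the block (-1.91). The cause of these shifts was not tested.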
